A study of Mus musculus with 20 samples.

Results

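The subunits of the mitochondrial respiratory chain were measured at the RNA level in prostate cancer cells sorted from bone metastases. They were taken as every gene whose mouse symbol starts with Nduf, Uqcr, Cox4i, Cox5, Cox6, Cox7, Cox8 or Atp5, together with Sdha, Sdhb, Sdhc, Sdhd and Cyc1. RefSeq holds 116 such symbols, 97 of them protein coding and 19 pseudogenes. Of these, 93 were listed in at least 1 of the 3 deposited tables, out of 17104 gene identifiers in all, and 90 were in every table. The 93 genes code for 36 subunits of complex I, 4 of complex II, 9 of complex III, 11 of complex IV and 17 of ATP synthase. The remainder are 8 complex I assembly factors, 6 tissue isoforms of complex IV subunits, the supercomplex factor Cox7a2l and the pseudogene Ndufs5-ps. The genes that carry the older symbols Atp5a1, Atp5b, Atp5e, Atp5g1 and the like are called here by their current symbols Atp5f1a, Atp5f1b, Atp5f1e and Atp5mc1. Subunits encoded in mitochondrial DNA were not analysed here.

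The respiratory chain passes electrons from NADH through complex I, or from succinate through complex II, to ubiquinone, then through complex III and cytochrome c to complex IV, where oxygen is reduced. Complexes I, III and IV pump protons across the inner mitochondrial membrane, and ATP synthase uses the returning protons to make ATP. Most of these complexes are built from core subunits that do the chemistry and from accessory subunits that hold them together. All of the genes followed here lie in the nucleus. Cells that make most of their ATP by oxidation usually express these genes at a high and coordinated level.

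The cells were MycCaP-Bo cells, a bone-homing derivative of the MycCaP mouse prostate cancer line labeled with infrared fluorescent protein (iRFP), injected into the heart of FVB male mice 4 to 6 weeks old. Naive tumors grew in mice given vehicle, and Resist tumors in mice given enzalutamide, an anti-androgen drug, at 30 mg/kg by daily gavage over 18 days. Resist-Mac tumors received the same enzalutamide course with clodronate liposomes, which deplete phagocytes, at 1 mg per mouse during the last 4 days. Tumors called Naive-Mac here received vehicle and the same liposomes. Each group had 5 libraries, and each library held the CD45- iRFP+ cells of 3 pooled mice, so that p-values measure the spread between such pools. All groups thus rest on 1 cell line, derived from the Hi-Myc mouse tumor in which a prostate promoter drives human Myc.

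Expression was deposited as FPKM, fragments scaled by library size and by the length of the transcript, with no read counts, and sequencing depth is therefore unknown. Naive and Resist libraries shared a table and a batch, whereas Resist-Mac and Naive-Mac libraries each formed a table and a batch of their own, and treatment, table and batch cannot be told apart across them. Column names carry a further shared number for replicates 2 and 3 and for 4 and 5 of Resist-Mac, and for 1 and 4 of Naive-Mac, whose meaning is not stated in the sources used here. The members summed to 31882 and 27646 FPKM in the first of these pairs, to 23183 and 25271 in the next and to 59071 and 45765 in the last. Between 12087 and 14056 genes were above 0 in a library. The FPKM of all listed genes summed to 481161 to 530961 in naive and Resist libraries, to 617494 to 761510 in Resist-Mac and to 882276 to 1.04044e+06 in Naive-Mac libraries. Among prostate epithelial markers, Krt8 was present, with means of 317, 190, 107 and 196 FPKM in naive, Resist, Resist-Mac and Naive-Mac. Hoxb13 (2.66, 6.54, 7.19 and 5.82 FPKM in the same order) and Krt19 (5.2, 4.87, 8.14 and 11.97) were present but did not follow Krt8. Krt18 and Cdh1 were near 0 in every group, and Epcam was listed only in Naive-Mac, at a mean of 0.01 FPKM. All 7 neutrophil markers were listed, with a summed level of 59.8 to 1224 FPKM in naive and Resist libraries, 390 to 8466 in Resist-Mac and 58.6 to 6015 in Naive-Mac. Macrophage markers summed to 3.47 to 94.6 FPKM in the first table and reached 796 in Resist-Mac and 517 in Naive-Mac. Lyz2, which neutrophils also express, held nearly all of that sum (means of 304 and 223 FPKM), and 5 to 7 of the 8 macrophage markers were under 1 FPKM in each group. Erythroid markers, nearly all Hba-a1, had mean sums of 89.9, 154, 222 and 452 FPKM in naive, Resist, Resist-Mac and Naive-Mac. In bulk RNA, fewer cells of a type and less RNA per cell cannot be told apart.

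Respiratory chain genes were abundant in these cells. In naive tumors 60 of the 92 listed members had a mean of at least 100 FPKM and their median was 130 FPKM. Together they held 3.51% ± 0.10 (SD, n = 5) of the listed FPKM in naive tumors, 3.29% ± 0.116 in Resist, 3.99% ± 0.154 in Resist-Mac and 5.30% ± 0.301 in Naive-Mac tumors. The most abundant member in naive tumors was Cox6a1, a small accessory subunit of complex IV, with a mean of 1473 FPKM and rank 59 among all listed genes. Atp5f1b, the catalytic beta subunit of ATP synthase, followed at 1050 FPKM, and Cox4i1, the ubiquitous form of a complex IV subunit, at 770. These 3 genes did not overlap in naive libraries, whereas Cox8a, Atp5f1a, Ndufa4 and Atp5mk had means of 503 to 525 FPKM and overlapped with one another.

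Assembly factors were the least abundant role among the ubiquitous genes. Complex I assembly factors, which help to build the complex and do not stay in it, had means from 2.41 FPKM (Ndufaf3) to 42.3 FPKM (Ndufaf8) in naive tumors. The 4 subunits of succinate dehydrogenase (complex II) lay between 53.7 FPKM for the membrane anchor Sdhc and 130 FPKM for the iron-sulfur subunit Sdhb. Complex I subunits other than Ndufs5 ranged from 21.6 FPKM (Ndufa11) to 272 FPKM (Ndufb7). Complex III subunits ran from 104 FPKM (Uqcrc2) to 456 FPKM (Uqcrq), and those of ATP synthase from 140 FPKM (Atp5me) to 1050. The order of member levels was close in all groups: against the naive means, Spearman's rho over members was 0.995 in Resist (92 genes), 0.960 in Resist-Mac (90) and 0.949 in Naive-Mac (91). These are correlations across genes, which share length and base composition between groups and are not replicates.

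Summed by complex, mean levels were highest in Naive-Mac, then Resist-Mac, naive and Resist tumors, differences that were not tested as sums. Complex I subunits summed to 4243 ± 178 FPKM in naive, 3917 ± 241 in Resist, 6602 ± 919 in Resist-Mac and 12575 ± 1723 in Naive-Mac tumors (mean ± SD, n = 5). Complex IV subunits summed to 5228 ± 218, 4627 ± 291, 7778 ± 849 and 14868 ± 1956 FPKM in the same order, and the highest Resist library (4934) lay below the lowest naive library (5015). Complex II stood at 379 ± 13.4, 357 ± 9.4, 586 ± 30.2 and 751 ± 47.6 FPKM. The sum over all members was 17455 to 19207 FPKM in the naive libraries and 15384 to 17675 in the Resist libraries, ranges that overlap. It was 23183 to 31882 in Resist-Mac and 43283 to 59071 in Naive-Mac libraries, with no overlap with either group of the first table.

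**Figure D1:**
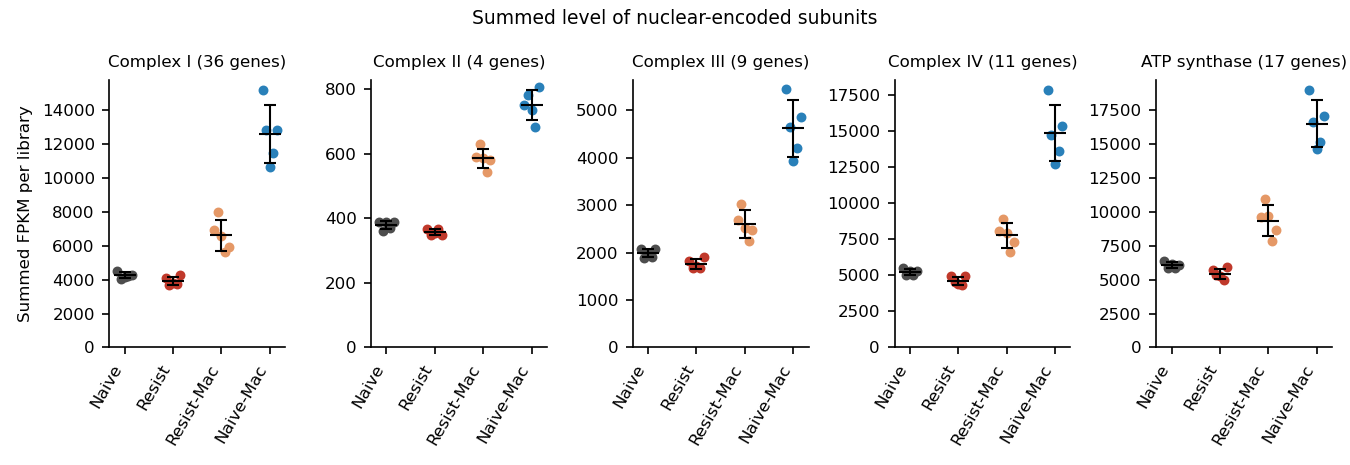
Summed FPKM (vertical axes, each starting at 0) of the subunits of complexes I to IV and ATP synthase in each library, by group. Points are libraries and bars give the mean ± SD of 5; every Naive-Mac library lies above the naive ones in each complex, and Resist libraries overlap with the naive ones except in complex IV.

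The start regions of these genes were compared for motifs of nuclear respiratory factor 1 (NRF1) and of ETS proteins such as GABPA, factors known for binding near many respiratory chain genes. RefSeq windows on GRCm38.p6, from 250 bases before to 50 after each start, were found for 75 members (80 windows). The NRF1 core TGCGCA, which reads the same on both strands, was in 25.0% of members' windows, in 14.6% of 10339 windows of other genes tested and in 7.76% of all 32851 windows. The ETS motif CCGGAAG, searched on both strands, was in 23.8%, 19.6% and 8.86% of them. The letters of the motifs do not overlap. The median GC content of the windows was 58.5%, 61.3% and 52.7%, so members were not richer in GC than the other genes tested. Only 4 members held both motifs, among them Cox6a1, the most abundant member, and Sdhd, which anchors complex II in the membrane. Their 200 bases upstream of the start follow, with the motif letters in capitals, beside those of Cox7a1, a muscle and heart isoform of a complex IV subunit, which holds neither motif. The windows lie at chr5:115348959-115349158 (minus strand), chr9:50603850-50604049 (minus strand) and chr7:30183971-30184170 (plus strand).
Cox6a1: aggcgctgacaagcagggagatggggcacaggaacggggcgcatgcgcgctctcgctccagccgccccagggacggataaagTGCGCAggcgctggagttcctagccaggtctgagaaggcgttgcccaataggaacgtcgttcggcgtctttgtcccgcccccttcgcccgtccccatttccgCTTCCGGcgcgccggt
Sdhd: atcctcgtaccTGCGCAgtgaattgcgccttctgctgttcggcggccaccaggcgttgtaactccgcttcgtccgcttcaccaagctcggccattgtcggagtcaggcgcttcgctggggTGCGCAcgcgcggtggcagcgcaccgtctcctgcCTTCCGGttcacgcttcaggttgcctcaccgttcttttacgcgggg
Cox7a1: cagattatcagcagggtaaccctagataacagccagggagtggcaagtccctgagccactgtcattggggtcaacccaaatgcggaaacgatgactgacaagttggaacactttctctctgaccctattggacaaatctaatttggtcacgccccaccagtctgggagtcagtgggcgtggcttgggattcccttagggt
CTTCCGG is the ETS motif read on the other strand. A match is a description of the sequence and binding was not measured.

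Resist and naive tumors, the comparison of enzalutamide-resistant with untreated tumors, differed little in these genes, and where they differed the level was lower in Resist. Of 88 members that passed a mean of at least 1 FPKM, 14 were lower in Resist at a limma adjusted p under 0.05 and 0 were higher. Among all 10119 genes tested, 6.40% were lower and 12.5% higher by the same rule. No member passed the test with a fold change over 1.5, which 1.11% of all genes did downward and 5.25% upward. The median log2 change of the members was -0.13, against 0.03 for all genes tested, and 73 members were below 0 (83.0%, against 43.9% of all genes). Members' transcripts are short, with a median longest annotated transcript of 955 bases against 3059 over all genes, so genes of like length were set beside them. The median change of 4974 genes between 457 and 3090 bases, the 5th and 95th percentiles of the members, was 0.00, and that of the 3354 with a like level as well was -0.03. Of the genes of like length, 73.3% lay above the members' median. Members' log2 changes had a Spearman's rho of -0.04 with transcript length (87 genes, no replicates).

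The 14 lower members came from most parts of the chain. Complex III had 3 of 9, complex IV 3 of 11, ATP synthase 2 of 17, the accessory subunits of complex I 5 of 29 and its assembly factors 1 of 8. None of the 7 core subunits of complex I and none of the 4 subunits of complex II passed the test by limma at that threshold. Their medians were -0.07 and -0.06 on the log2 scale, beside -0.14 in complex III and -0.16 in complex IV. This split was not stable under correction of each library for transcript length and GC content, which called 18 members lower and 1 higher. Among all 10021 genes with that correction, 1298 were lower and 962 higher. Complex I core subunits then had 3 of 7 lower, complex III 4 of 9, complex IV 0 of 11, ATP synthase 7 of 17, the assembly factors 0 of 8 and complex II 0 of 4. Whether complexes differed from one another was not tested.

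In complex III, Uqcrfs1, the Rieske iron-sulfur protein that hands electrons to cytochrome c1, fell in Resist tumors. It was at 127, 127, 128, 119 and 126 FPKM in naive libraries 1 to 5 and at 109, 107, 94.7, 91.3 and 110.5 in the Resist libraries. Every Resist library lay below every naive library, and the log2 change was -0.29 (SE 0.06, limma adjusted p = 0.00917). The electron-carrying cytochrome c1 itself, Cyc1, changed by -0.24 (SE 0.06, limma adjusted p = 0.0225). It was at 149, 142, 150.3, 137 and 149 FPKM in naive and 124, 109.9, 119, 125 and 138 in Resist libraries, which overlapped in 1 library of Resist. Uqcrq, a small accessory subunit, was at 460.4, 430.3, 438, 449.6 and 502 FPKM in naive and at 365, 333, 371, 341 and 430.1 in Resist libraries. It changed by -0.31 (SE 0.07, limma adjusted p = 0.0140), and the highest Resist library came just below the lowest naive library.

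Of ATP synthase, Atp5mc3, which codes for the c subunit of the rotating ring, was lower in all Resist libraries. It was at 494.5, 443, 515, 469 and 507 FPKM in naive libraries and at 419.9, 381, 385, 395 and 437 in Resist libraries (log2 change -0.27, SE 0.06, limma adjusted p = 0.0127). The same protein is coded by Atp5mc1 and Atp5mc2, and these did not pass the test. Atp5mc2 was at 359 FPKM in naive and 379 FPKM in Resist tumors (log2 change 0.07, limma adjusted p = 0.439). Atp5f1a, the alpha subunit of the catalytic head, changed by -0.22 (limma adjusted p = 0.0300) and its groups did not overlap.

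In complex I, Ndufc1 had the lowest change of all members tested, at -0.35 (SE 0.09, limma adjusted p = 0.0223). This accessory subunit of the membrane arm was at 195, 170, 182, 196 and 226 FPKM in naive and at 150.3, 134, 149.8, 145 and 183 in Resist libraries, so that the highest Resist library overlapped with the naive range. Ndufa10 was at 97.2, 95.2, 95.8, 96.7 and 99.3 FPKM in naive libraries and at 88.9, 83.0, 84.1, 76.0 and 87.6 in Resist libraries, with no overlap (log2 change -0.21, limma adjusted p = 0.0223). Ndufb7, Ndufc2, Ndufb2 and the assembly factor Ndufaf8 fell by 0.23 to 0.25 on the log2 scale.

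Complex IV was lower in Cox6a1, Cox7a2 and Cox5a, with log2 changes of -0.27, -0.26 and -0.21 (limma adjusted p = 0.0466, 0.0491 and 0.0293). None of the 3 passed after the length and GC correction (limma adjusted p = 0.0675, 0.0975 and 0.155). Cox6a1 was at 1508, 1413, 1447, 1445 and 1550.1 FPKM in naive libraries and at 1417, 1139.8, 1194, 1014 and 1366 in Resist libraries. The means of the 14 members were 13.3% to 21.4% below those of naive tumors. For 9 of the 88 members the groups had separate ranges, all lower in Resist. Among all genes tested, 4.34% were lower and 8.45% higher in this way. These were Uqcrq, Uqcrfs1, Atp5mc3, Atp5f1a, Cox5a and Ndufa10, and also Uqcr11, Cox4i1 and Cox7c, which did not pass the test.

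The members with the highest changes in Resist vs. naive did not pass the test. Ndufa7, an accessory subunit of complex I, had the highest (log2 change 0.19, SE 0.09, limma adjusted p = 0.138), and Cox7a2l, which joins complexes III and IV into supercomplexes, 0.14 (SE 0.07, limma adjusted p = 0.146). Ndufb4 and Ndufaf2 stood at 0.07 and 0.06. The next lowest after Ndufc1 included Atp5mf (-0.33, limma adjusted p = 0.0663) and Ndufv3 (-0.30, limma adjusted p = 0.0539), which missed the threshold.

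**Figure D2:**
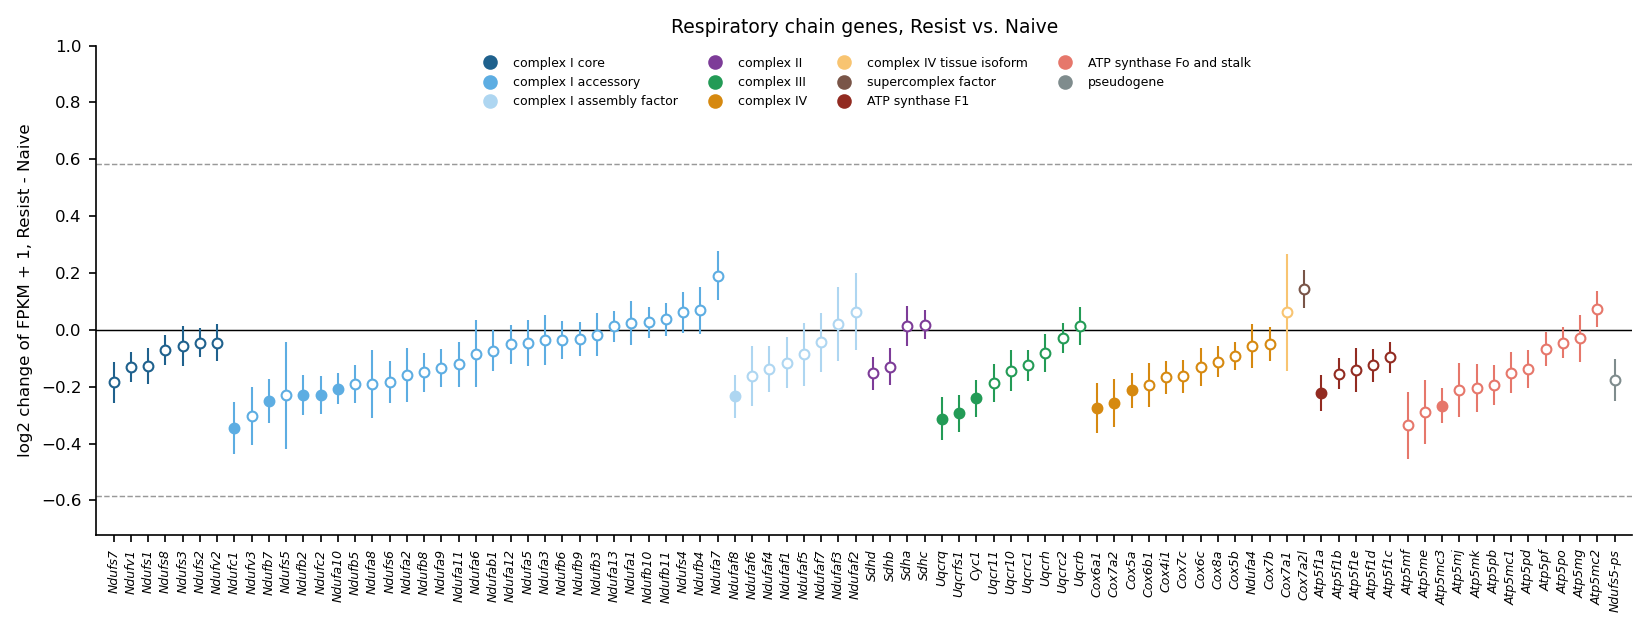
Log2 change of each of the 88 tested members in Resist vs. naive tumors (vertical axis, limma on log2(FPKM + 1), bars are ± 1 SE). Genes are grouped by role along the horizontal axis. Filled points passed an adjusted p under 0.05 and dashed lines mark a fold change of 1.5; all 14 filled points lie below 0 and none reaches a dashed line.

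The number of members that passed depended on single libraries. Without naive replicate 1 it was 3, without Resist replicate 5 it was 23, without Resist replicate 1 it was 12, and without any other single library it was 5 to 9. In 20 further fits at the same threshold, 10 that left out a library and 10 with other settings, Atp5mc3 and Uqcrfs1 passed in all and Uqcrq in 19, whereas Cox6a1 and Cox7a2 passed in 6 and 5, and all 14 were lower in each. With libraries scaled to equal FPKM totals, 5 members were lower and 2 higher, and calls over all genes with that setting are not given here. Naive replicate 1 had the highest neutrophil marker sum of the first table (1224 FPKM), and its part in the result was not tested.

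The other comparisons set depleted tumors beside those with their macrophages. In Resist-Mac vs. Resist, nearly the whole chain was listed at a higher level: 80 of 87 members tested were higher and 1 was lower by limma. Among all 10049 genes tested, 24.6% were higher and 19.1% lower. With a fold change over 1.5 the counts were 60 higher and 1 lower, against 12.0% and 9.71% of all genes. The median log2 change of the members was 0.71, against 0.02 for all genes. All 17 ATP synthase genes, all 11 complex IV subunits and 33 of 36 complex I subunits were higher.

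In Naive-Mac vs. naive, 82 of 88 members were higher and 2 lower, with 31.3% of all 9837 genes higher and 46.8% lower. With a fold change over 1.5, 79 were higher and 0 lower, against 22.1% and 37.5%. The median log2 change was 1.37, against -0.23 over all genes. The ranges of the groups were separate for 82 members here, all higher, and for 76 in Resist-Mac vs. Resist, of which 75 were higher. The share of all genes with separate ranges is not given for these comparisons, so the counts cannot be read as particular to the members. Each comparison has a table and a batch on either side, so these differences and those of the batch cannot be told apart.

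Short genes in general had higher FPKM in the tables of depleted tumors. Over all genes with a known length, Spearman's rho between the log2 change and transcript length was -0.68 in Resist-Mac vs. Resist and -0.75 in Naive-Mac vs. naive, beside 0.16 in Resist vs. naive. Over members it was -0.24 and -0.51 (87 genes each). Genes of like length had median changes of 0.26 and 0.35, and 2013 of 4990 and 2548 of 4974 of them were called higher. With a like level as well, the medians were 0.31 and 0.47. The members' medians lay above most of these, with 15.2% and 9.11% of genes of like length above the member median, and 14.7% and 11.3% of those of like length and level. Genes of like length span 457 to 3090 bases and were not matched within that band to the members' median of 955 bases. A comparison over so wide a band cannot set the effect of length aside. The part of transcript length in the result was not tested beyond this comparison and the following correction.

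**Figure D3:**
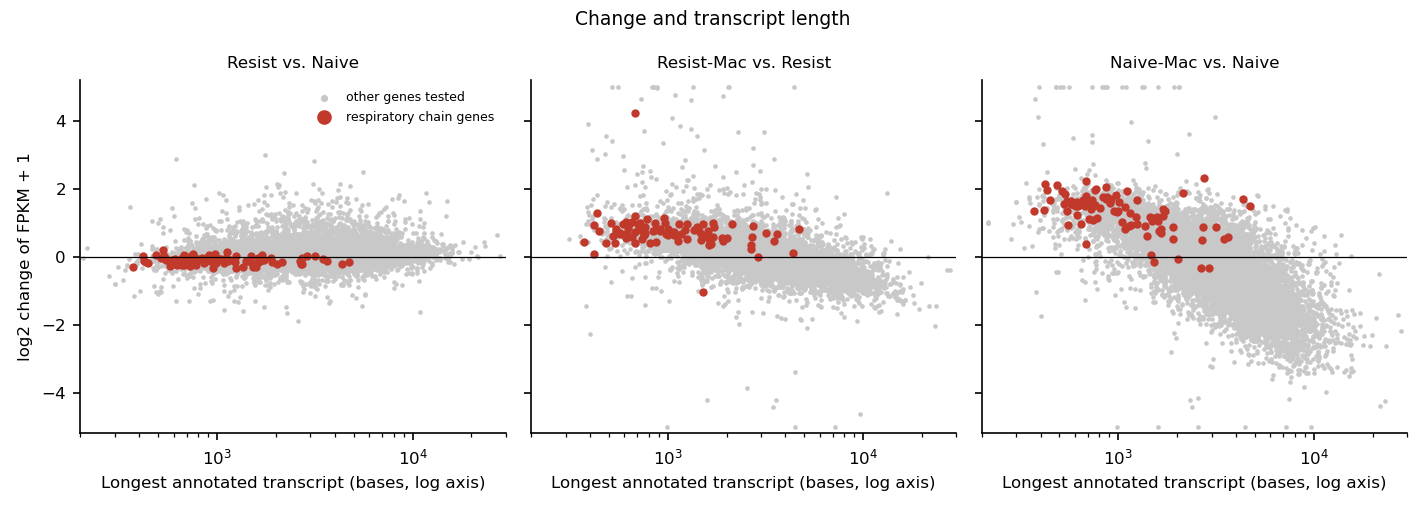
Log2 change (vertical axis) against the longest annotated transcript in bases (horizontal log axis) for members and for the other genes tested, in Resist vs. naive, Resist-Mac vs. Resist and Naive-Mac vs. naive. Other genes beyond ± 5 are drawn at 5; in both depletion panels short genes lie higher, members among them, and in Resist vs. naive the members lie along 0.

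When each library was corrected for transcript length and GC content with a spline, fewer members were called and the medians came closer to 0. In Resist-Mac vs. Resist the median became 0.11, with 22 members higher and 8 lower, and in Naive-Mac vs. naive it became 0.37, with 56 higher and 12 lower. The corrected medians of all genes were -0.02 and -0.01. Of all genes with that correction, 1110 of 10031 were higher and 1138 lower in the former contrast. In the latter, 3148 of 9790 were higher and 3252 lower. By role, the corrected median of complex IV was -0.14 in both, whereas complex II kept 0.35 and 0.39. The F1 part of ATP synthase, which includes the catalytic head, kept 0.28 and 0.63. The longest annotated transcript overstates the length of some members, such as Ndufb2 (4371 bases), Atp5mc1 (4715) and Atp5mk (2733), whose corrected changes were therefore set against those of long genes. With equal FPKM totals the medians were 0.27 and 0.51, the median of all genes then stood at -0.39 and -0.98, and 43 members were higher with 4 lower, and 62 higher with 9 lower. Calls over all genes with equal totals are not given here. Median-ratio scaling moved the median of all genes in Naive-Mac vs. naive to 0.05 and that of the members to 1.68.

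Subunits of 1 complex differed widely in these contrasts. In the F1 part of ATP synthase, Atp5f1e, the epsilon subunit with a transcript of 421 bases, rose in Naive-Mac vs. naive (log2 change 2.12, SE 0.14, limma adjusted p = 1.05e-08). Atp5f1a (2674 bases) and Atp5f1b (1916 bases), which form the catalytic head in equal number, changed by 0.49 and 0.53. Atp5f1e was at 431, 374, 360.4, 382 and 395 FPKM in naive and at 2276, 1915, 1237, 1465 and 1773 in Naive-Mac libraries. Atp5f1b was at 1055, 1042, 1089, 995 and 1066 FPKM in naive and at 1269.7, 1541, 1678, 1562 and 1551 in Naive-Mac libraries. Both rose without overlap, but by different amounts. Atp5f1d (1410 bases) changed by 0.61 and Atp5f1c (1735 bases, with 3 close processed pseudogenes) by 1.35. The part of length in the changes of these single genes was not tested.

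In complex II, the catalytic subunits went apart. Sdha, the flavoprotein that oxidizes succinate (2900 bases), was at 72.6, 76.5, 83.7, 83.7 and 72.4 FPKM in naive and at 45.2, 59.0, 79.9, 73.4 and 58.4 in Naive-Mac libraries (log2 change -0.32, SE 0.13, limma adjusted p = 0.0399). Its partner Sdhb (1142 bases) was at 133, 119.7, 134.5, 122 and 141 FPKM in naive and at 339, 302, 322, 298 and 346 in Naive-Mac libraries, a log2 change of 1.3 (SE 0.07). The Sdha groups overlapped and those of Sdhb did not. With the length and GC correction, the change of Sdha was -0.12 (limma adjusted p = 0.250) and that of Sdhb 0.50. The anchor Sdhc, with the longest annotated transcript of the complex (3171 bases), changed by 0.87 as deposited. In Resist-Mac vs. Resist, Sdha had a log2 change of 0.00 (SE 0.15) and Sdhb of 0.97 (SE 0.08).

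The other low member in Naive-Mac was Ndufs1, the largest core subunit of complex I (2661 bases), at 55.2, 51.5, 55.3, 48.1 and 48.6 FPKM in naive and 32.2, 40.4, 54.3, 41.9 and 39.0 in Naive-Mac libraries. Its change was -0.33 (SE 0.12, limma adjusted p = 0.0210) and -0.41 after the length and GC correction. Ndufa10 stood at -0.07 (limma adjusted p = 0.372) and the assembly factor Ndufaf1 at 0.05, and corrected they were called lower, at -0.28 and -0.77. In contrast, Atp5mk, a small membrane subunit of ATP synthase, had the highest change, 2.30 (SE 0.11, limma adjusted p = 8.43e-10). It was at 570.4, 468, 510, 470.2 and 499 FPKM in naive and 3055, 2265, 2105, 2272 and 2862 in Naive-Mac libraries. Atp5pd, of the peripheral stalk, followed at 2.22, Cox7a1 at 2.10 and Ndufa8 at 2.05. Cox4i1 reached a mean of 3066 FPKM in Naive-Mac tumors from 770.1 in naive tumors, and was above the naive range in every library.

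In Resist-Mac vs. Resist, the highest changes after that of Ndufs5 were those of Uqcr10 (1.29), Atp5pd (1.19), Atp5mf (1.13) and Ndufaf8 (1.10). Uqcr10, a small subunit of complex III, was at 179, 147, 173, 165 and 181 FPKM in Resist and at 433, 487, 384, 389 and 385 in Resist-Mac libraries. After correction its change was 0.23 (limma adjusted p = 0.121). Sdha, Ndufa1 (0.08), Ndufb2 (0.10) and Ndufs1 (0.21) did not pass the test.

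**Figure D4:**
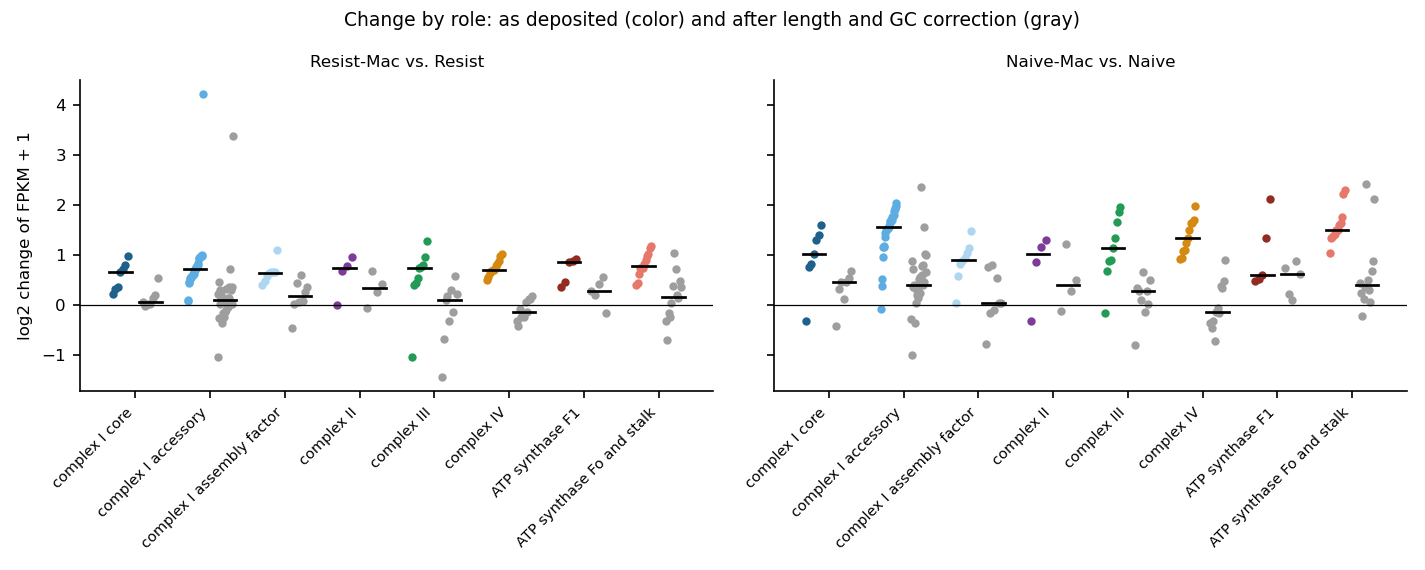
Log2 change of the members by role (horizontal axis) in Resist-Mac vs. Resist and Naive-Mac vs. naive (vertical axis), as deposited in color and corrected for length and GC content in gray. Points are genes and lines are medians; the colored medians lie above 0 in every role, and the gray median of complex IV lies at -0.14 in both panels.

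Neutrophil markers and Lyz2 were higher in many depleted libraries, and their part in the members' rise was not tested. Neutrophil marker sums were 4750, 58.6, 6015, 3747 and 742 FPKM in Naive-Mac libraries 1 to 5. The members of these libraries summed to 59071, 50227, 43283, 45765 and 51616 FPKM. In Resist-Mac libraries 1 to 5, neutrophil marker sums were 8466, 973, 390, 2369 and 4718 FPKM. Their members summed to 28228, 31882, 27646, 23183 and 25271 FPKM. Naive-Mac replicate 2 also had a macrophage marker sum of 4.53 FPKM and an erythroid marker sum of 221 FPKM. Marker sums and member sums were not tested against each other.

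The depletion contrasts differed from each other. Tested as a difference of differences (Resist-Mac minus Resist, minus Naive-Mac minus naive), 64 of 87 members had a smaller change in resistant tumors and 4 a larger one by limma. Among all 9876 genes tested, 13.5% were lower and 38.3% higher. The median difference was -0.62 on the log2 scale, beside 0.28 over all genes, -0.05 over genes of like length and -0.09 over those of like length and level. After the length and GC correction it was -0.25, with 36 members lower and 8 higher, beside 1906 lower and 1888 higher of all 9858 genes. With equal FPKM totals 37 members were lower and 11 higher, and calls over all genes with that setting are not given here. The lowest differences as deposited were those of Cox7a1 (-1.70), Ndufb2 (-1.60), Uqcrb (-1.46), Atp5mk (-1.40) and Ndufs6 (-1.34). The 4 larger ones were Ndufs5 (3.84), Ndufa10 (0.61), Ndufs1 (0.54) and Ndufaf1 (0.43). Naive and Resist libraries share a batch, but Resist-Mac and Naive-Mac libraries do not. The difference of the contrasts and that of these batches therefore cannot be told apart.

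Ndufs5, an accessory subunit of complex I, had a high deposited value in Resist-Mac alone, which is a group and a table at once. It was at 10.4, 7.05, 5.96, 9.38 and 12.8 FPKM in naive, at 9.93, 5.69, 7.51, 5.86 and 8.63 in Resist and at 17.6, 12.4, 13.4, 11.2 and 6.97 in Naive-Mac libraries. In Resist-Mac libraries it was at 178, 185, 157, 132 and 132 FPKM (log2 change against Resist 4.22, SE 0.15, limma adjusted p = 8.22e-10). The processed pseudogene Ndufs5-ps, an intronless copy of its transcript, was listed at a mean of 104 FPKM in naive, 92.0 in Resist and 259.6 in Naive-Mac tumors, and was not listed in the Resist-Mac table. Ndufs5 thus held 8.09%, 7.54% and 4.53% of the sum of both where both were listed, and all of it in Resist-Mac.

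The coding sequence of Ndufs5 and the copy were identical at 317 of 319 bases (99.4%), so the split of reads between them is uncertain. Counted from 1 at the first base of the coding sequence, the differences were T81C and A105G (base of Ndufs5 first), both at the last position of a codon. Bases 61 to 180, which hold both, are shown with the differing bases in capitals, on GRCm38 at chr4:123715900-123716019 (minus strand) for Ndufs5 and chr16:42955691-42955810 (plus strand) for Ndufs5-ps.
Ndufs5: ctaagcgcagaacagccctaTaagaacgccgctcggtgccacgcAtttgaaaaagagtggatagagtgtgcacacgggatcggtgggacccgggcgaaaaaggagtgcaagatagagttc
Ndufs5-ps: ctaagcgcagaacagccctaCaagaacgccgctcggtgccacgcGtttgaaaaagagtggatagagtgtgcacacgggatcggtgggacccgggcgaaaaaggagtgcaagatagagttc
The sum of both genes was 114 ± 9.8 FPKM in naive, 99.5 ± 5.9 in Resist, 157 ± 25.0 in Resist-Mac and 272 ± 46.9 in Naive-Mac tumors (SD, n = 5). Taken as a sum, Resist-Mac lay between Resist and Naive-Mac, as the complex I total did.

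Uqcrq went against the rest of the chain in Resist-Mac. It fell against Resist (log2 change -1.04, SE 0.12, limma adjusted p = 4.36e-05), the only member that passed the test downward, and fell by 1.43 after the length and GC correction. Its values were 180.2, 228, 172, 151 and 166 FPKM in Resist-Mac libraries, all below the lowest Resist library (333). In Naive-Mac libraries it was at 519.8, 437, 301, 356 and 449, a range that covered that of the naive libraries (log2 change -0.17, limma adjusted p = 0.232). After the correction it passed there as well, at -0.79 (limma adjusted p = 0.00015). Uqcrq has 1 close processed pseudogene, and 31 of the 93 members have at least 1. Without those members, 51 of 56 were higher in Resist-Mac vs. Resist and 53 of 57 in Naive-Mac vs. naive.

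**Figure D5:**
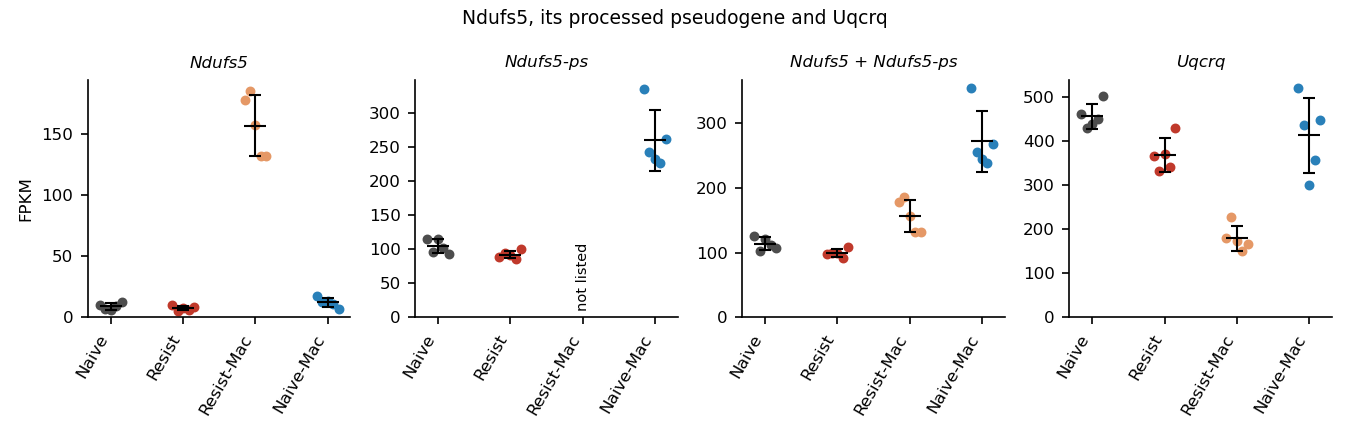
FPKM (vertical axes from 0) of Ndufs5, its processed pseudogene Ndufs5-ps, the sum of both, and Uqcrq in each library, by group, with bars for mean ± SD. Ndufs5-ps is not listed for Resist-Mac; Ndufs5 alone is high only in the Resist-Mac table, its sum with the copy rises from Resist to Resist-Mac to Naive-Mac, and Uqcrq is lowest in Resist-Mac.

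The cells used the ubiquitous isoforms of complex IV. Cox7a1, the muscle and heart isoform, was at 2.79, 3.11, 6.86, 6.72 and 6.15 FPKM in naive libraries, 3.12% of its ubiquitous partner Cox7a2. In Resist it was 3.77%, in Resist-Mac 2.54% and in Naive-Mac 4.67% of Cox7a2. Its level reached 29.7, 19.1, 19.1, 26.5 and 27.7 FPKM in Naive-Mac libraries, all above the naive range. The muscle isoform Cox6a2, the testis isoform Cox6b2 and Ndufa4l2, a hypoxia-linked relative of Ndufa4, had means under 1 FPKM in every group, and Cox4i2 was listed at 0 in every naive and Resist library. Skeletal muscle markers summed to 5.62 to 20.2 FPKM in the libraries. Most of it was Mylpf (6.02 FPKM in naive) and Tnni2 (3.08 in naive, 12.0 in Resist-Mac, 6.81 in Naive-Mac), with Ckm, Myh4 and Mb at or near 0. Cox8b was not listed. Atpif1, the inhibitor that binds ATP synthase and that is outside the symbol rule, was at 66.2 ± 3.91 FPKM in naive, 70.2 ± 8.56 in Resist, 95.5 ± 15 in Resist-Mac and 160 ± 32.2 in Naive-Mac tumors. It did not pass the test in Resist vs. naive (log2 change 0.08, limma adjusted p = 0.546), whereas it rose by 0.43 and 1.24 in the depletion contrasts.

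Genes that serve the chain without being part of it were also followed in Resist vs. naive. Of 41 further assembly factors tested, 3 were lower and 1 higher, where 6.40% and 12.5% of all genes tested were, a share to set beside each of the following counts. Higd1a, a hypoxia-induced protein that binds complex IV, had the largest change, from 60.1 to 38.4 FPKM (log2 change -0.65, limma adjusted p = 0.00761). Uqcc2 and Coa7 were lower by a log2 change of -0.29 and -0.27, and Uqcc3 higher by 0.32. Of 8 electron carriers and donors, Cycs, which codes for cytochrome c, was lower, from 11.8 to 7.40 FPKM (log2 change -0.60, limma adjusted p = 0.00440), and Etfdh was higher (0.25). Cycs has 10 close processed pseudogenes, and its mean was 107 FPKM in Resist-Mac and 221 in Naive-Mac tumors, and table and depletion cannot be told apart there. In the tricarboxylic acid cycle, 1 of 18 genes was higher (Idh2, 0.26) and 1 lower (Mdh2, -0.32). After the length and GC correction 0 of the 18 were higher and 5 lower, beside 962 and 1298 of all 10021 genes.

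Among 13 regulators of mitochondrial gene expression, 1 passed in Resist vs. naive. Ppargc1a, a coactivator that drives mitochondrial biogenesis, rose from 4.98 to 6.60 FPKM (log2 change 0.33, limma adjusted p = 0.0447), opposite in sign to the median of the chain. This call was not kept after the length and GC correction, by which 0 of the 13 regulators were higher and 4 lower. The genes of the mitochondrial ribosome, which translates the subunits coded in mitochondrial DNA, had 14 of 78 lower and 0 higher with a median of -0.15. The proteasome, taken as a complex outside the mitochondrion, had 6 of 38 lower and 1 higher, also with a median of -0.15. The median of the respiratory chain was -0.13, and no difference between the lists was tested.

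In the depletion contrasts most genes of both of these lists were higher. The mitochondrial ribosome had 72 of 78 genes higher in Resist-Mac vs. Resist (median 0.68) and 77 of 78 in Naive-Mac vs. naive (1.14), and the proteasome 32 and 34 of 38 (0.51 and 0.99), beside 24.6% and 31.3% of all genes. After the length and GC correction 31 and 53 of 78 and 9 and 26 of 38 were higher, beside 1110 of 10031 and 3148 of 9790 of all genes. Of the tricarboxylic acid cycle, 7 of 18 were higher and 0 lower in Resist-Mac vs. Resist, and 8 higher and 6 lower in Naive-Mac vs. naive. Of all genes, 19.1% were lower in the former contrast and 46.8% in the latter. Of the 13 regulators, 5 were higher and 7 lower in Naive-Mac vs. naive, where 31.3% and 46.8% of all genes were. Pprc1, Ppargc1a, Polg, Polrmt, Twnk, Gabpa and Yy1 fell, with log2 changes of -2.45, -1.47, -1.44, -1.32, -1.25, -1.23 and -0.64. Esrra, a nuclear receptor that drives oxidative genes, rose by 0.90. Tfb1m, Gabpb1, Tfam and Tfb2m rose by 0.59, 0.54, 0.36 and 0.24. After the length and GC correction 6 regulators were higher and 6 lower, beside 3148 and 3252 of all 9790 genes. In Resist-Mac vs. Resist, 4 regulators were higher and 2 lower, and 5 higher and 0 lower after the correction.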

How the data were processed

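RNA of sorted tumor cells was made into libraries with oligo-dT beads and sequenced on a BGISEQ-500. The submitters' processing notes name Bowtie2 and the mouse build mm9, and the quantification tool is not given in the sources used here. The authors deposited FPKM per gene and library in 3 tables. The table of naive and Resist tumors was deposited as log2(FPKM + 1), since undoing that step left 100% of its 174850 values within 0.001 of a 2-decimal number, and was converted to FPKM; the others were deposited as FPKM. The tables give no read counts, so no counting error could be given.

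Of the identifiers, 16978 of 17104 matched a RefSeq symbol. Genes the authors call BGI_novel (752, first table only) were removed. Transcript length and GC content came from the longest GENCODE transcript on GRCm38, a build that differs from mm9, so coordinates are given only for printed sequences, from RefSeq windows and GENCODE. A processed pseudogene was called close when minimap2 2.31 aligned it with an identity of 0.9 or more across a covered share of 0.8 or more.

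In each comparison, only its own groups were fitted, the filter was a mean FPKM of 1 or more and the pseudocount was 1, so fold changes are on the log2(FPKM + 1) scale and understate those of low genes. The test was limma 3.58.1 (R 4.3.3, prior variance with trend), adjusted by Benjamini-Hochberg over all genes tested and called at an adjusted p under 0.05. Genes of like length lay between the 5th and 95th percentiles of the members' lengths, and those of like level likewise in mean FPKM. The procedure was tested on simulated data. The result of 1 marker gene is not reported here.

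Members, lists and tests were chosen with earlier results of these data known. Genes were named by rule: the 5 highest and 5 lowest changes in each comparison, the highest and lowest member of each complex, the succinate dehydrogenase genes and Cyc1, and isoform pairs with the ATP synthase inhibitor. The other members called in Resist vs. naive, those whose groups did not overlap, and genes of the other pathway lists were named after their values were seen. Alternatives were a pseudocount of 0.1, no filter, a mean of at least 5 FPKM, median-ratio scaling, quantile normalization, no trend in the prior variance, all groups in one fit, the replicate number as a block, correction of each library for length and GC content (splines with 4 degrees of freedom), removal of members with a close processed pseudogene, a fold change over 1.5, and leaving out each library. Equal FPKM totals were added after seeing the data. The scripts ran under Python 3.11.15 with matplotlib 3.10.9, pandas 2.3.3 and numpy 2.4.6.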

Additional observations from a re-analysis of the deposited data

Results flagged for a closer look

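In 162 sets of 5 libraries, over 44 named members and the groups that list them, 7 had a library far from the others by Dixon's test, where chance alone would mark about 1 set in 20. Uqcrfs1 was at 119 FPKM in naive replicate 4, below the 126 to 128 of the other naive libraries and still above every Resist library. Ndufb2 was at 195 FPKM in Resist replicate 5, beside 160 to 166 in the others. Sdhd was at 97.9 FPKM in Resist replicate 3, beside 106 to 109.6. Atp5me was at 153 FPKM in naive replicate 1, beside 134 to 138, and Uqcrc2 at 198 FPKM in Resist-Mac replicate 2, beside 131 to 147. Cox6b2 was at 1.60 FPKM in Resist-Mac replicate 1, with the other Resist-Mac libraries at 0, and at 2.28 FPKM in Naive-Mac replicate 4, with the others at up to 0.55.

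The depletion contrasts differed for 68 of 87 members by the limma test of the difference, 64 with a smaller and 4 with a larger change in resistant tumors. The tables and batches of Resist-Mac and Naive-Mac differ as well, so their part cannot be told apart.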

How the results depend on the processing

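In Resist vs. naive, all members called kept a lower level in every alternative that tested them. Against 14 members called as deposited, there were 9 without a filter, 9 without a trend in the prior variance, 9 without members with a close processed pseudogene, 24 with median-ratio scaling, 7 with quantile normalization, 7 with equal FPKM totals, 19 with the length and GC correction (18 lower and 1 higher), 2 with all groups in one fit and 0 with a fold change over 1.5, and 3 to 23 when a library was left out, with a median of -0.14 to -0.11. Of the single changes followed, those of Ndufaf2 (-0.046 to 0.13 when a library was left out), Cox7a1 (-0.082 with quantile normalization, -0.094 to 0.17 when a library was left out), Cox8a (0.0096 with quantile normalization) and Ndufa4 (0.069 with quantile normalization, 0.053 with the length and GC correction, 0.0019 with equal FPKM totals) changed sign, and none of these members passed the test. Over 19 members (the 5 highest and 5 lowest changes and the isoform pairs) and 20 alternatives, 323 values kept direction and side of the threshold, 34 lost the call, 13 gained it and 10 changed sign.

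In Resist-Mac vs. Resist, 81 members were called, and quantile normalization gave 53 (median 0.33), the length and GC correction 30 (0.11), equal FPKM totals 47 (0.27) and removal of members with a close processed pseudogene 51. In Naive-Mac vs. naive, with 84 called, the median was 1.68 with median-ratio scaling, 0.71 with quantile normalization, 0.37 with the length and GC correction, 0.51 with equal FPKM totals and 1.24 without members with a close processed pseudogene, of which 55 were called. For the difference of these contrasts, with 68 called, the correction gave 44 and the removal 41. Leaving out a library gave 79 to 83, 83 to 84 and 62 to 70 called.

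Samples with the same replicate number did not deviate together (correlations of -0.16 to -0.03, -0.27 to 0.36 and -0.16 to 0.23 in the comparisons), so the numbers do not pair the samples. With the replicate number as a block, 10, 81, 84 and 68 members were called. Depth is unknown, the quantification was not documented, and tables, batches and depletion coincide.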
